A study of Homo sapiens with 6 samples.

Results

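Transcripts of 7 matrix metalloproteinases (MMP1, MMP2, MMP3, MMP7, MMP13, MMP14 and MMP15) and of 3 tissue inhibitors of metalloproteinases (TIMP1, TIMP2 and TIMP3) were measured in A549 cells with and without CELF6. The genes were taken by their symbols, and each symbol matched 1 row, so that 10 of the 29889 genes in the deposited tables are described. A549 is an established human lung adenocarcinoma cell line. In the CELF6-OE group the cells were transfected with the pIRES-hrGFP-1a plasmid carrying CELF6, an RNA-binding protein, and in the Control group with the same plasmid without an insert. Both groups were harvested after 48 h, with 3 replicates in each group and 6 libraries in all. Transfection was transient and only 1 cell line was used. The share of cells that took up the plasmid was not analysed here.

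Matrix metalloproteinases are zinc-dependent endopeptidases that cut collagens, laminins, cell surface proteins and growth factor precursors. Most are secreted as inactive proenzymes, while MMP14 and MMP15 are anchored in the plasma membrane. TIMPs are small secreted proteins that block the active site of these enzymes, and TIMP2 also holds proMMP2 on the cell surface, where MMP14 activates it. In lung tumours the family is known for its part in invasion through the basement membrane.

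Between 33748328 and 35413404 reads were counted on genes in the CELF6-OE libraries and between 36422617 and 37920700 in the Control libraries. The transfected gene itself drew 18646, 20789 and 11571 reads in replicates 1 to 3 of CELF6-OE and 0 in each Control library, where a count of 0 allows up to 3 counts. The identity of the cells was checked with 11 markers of A549 or of epithelial cells, all of them detected. Levels were taken as FPKM (fragments scaled to the length of the transcript and to the depth of the library). The 11 markers summed to between 7487 and 8623 in the CELF6-OE libraries and between 9104 and 9477 in the Control libraries. CDH1, which encodes the epithelial adhesion protein E-cadherin, was the only one that changed by at least 1.5-fold with an adjusted p under 0.05 (log2 fold change -1.62, adjusted p = 0.000105 in edgeR's quasi-likelihood test, described below). With a smaller fold change, KRT8, KRT18 and KRT19, keratins of epithelial cells, also had an adjusted p under 0.05 and were lower in CELF6-OE (log2 fold changes -0.47, -0.36 and -0.22), and TXNRD1, a thioredoxin reductase, was higher (0.34). Of 7 fibroblast markers, 6 were listed, with sums between 0.26 and 0.34 in the CELF6-OE libraries and between 0.40 and 0.48 in the Control libraries, and COL1A1 alone passed the filter on low counts. Leukocyte markers summed to between 3.64 and 4.92 in CELF6-OE and between 3.64 and 4.30 in Control, mostly from CD14, and the pan-leukocyte marker PTPRC had 2 counts in Control replicate 1 and 0 in the other libraries. ITGAM, an integrin of myeloid cells, was lower in CELF6-OE (log2 fold change -0.73, adjusted p = 0.0119). The part of these shifts in the results below was not tested. In bulk RNA, fewer cells that express a gene and less RNA per cell cannot be told apart.

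The 10 genes differed in level by several orders of magnitude. In Control, the mean FPKM was 140.6 ± 9.83 for TIMP1, 107.6 ± 9.63 for MMP7, 38.1 ± 1.13 for TIMP2 and 5.20 ± 0.55 for MMP15 (SD, n = 3 each). The order of these 4 genes was the same in CELF6-OE, and the libraries of neighbours in the order did not overlap in either group. All other genes had a mean FPKM of at most 0.37. Among them, MMP14, MMP2 and MMP13 were close in Control, at 0.25, 0.23 and 0.21, and the libraries of each overlapped those of the next. MMP1 and TIMP3 could not be ordered in Control, since both had a mean of 0.11. MMP3, which encodes stromelysin 1, was covered by 0, 1 and 1 reads in the CELF6-OE libraries, against 0, 0 and 1 in the Control libraries, too few for any comparison, and it was the only one of the 10 removed by the filter on low counts.

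**Figure D1:**
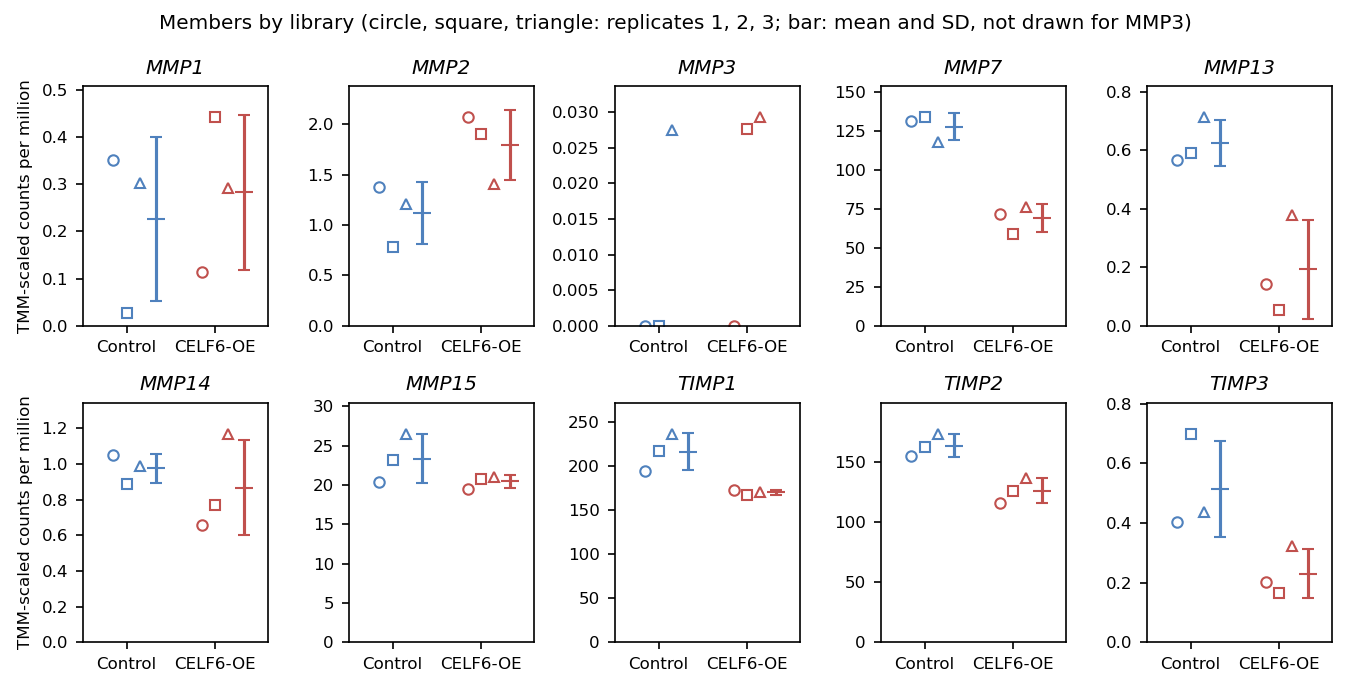
CPM (read counts scaled to library size with TMM, the trimmed mean of M values) of each of the 10 genes (vertical axis, starting at 0 with its own scale for each gene) in the 3 Control (blue) and 3 CELF6-OE (red) libraries, with the mean and SD (not drawn for MMP3). The CELF6-OE libraries lie below all Control libraries for MMP7, MMP13, TIMP1, TIMP2 and TIMP3 and above them for MMP2, and the groups overlap for MMP1, MMP3, MMP14 and MMP15.

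To see whether CELF6-OE changed these genes, the counts were compared with edgeR's quasi-likelihood test over the 15847 genes that passed the filter. A gene was called a DEG when it differed by at least 1.5-fold with a Benjamini-Hochberg adjusted p under 0.05. Of the 9 genes tested, MMP7 and MMP13 were DEGs, both lower in CELF6-OE, where 5.82% of all genes tested were lower DEGs. No gene was a higher DEG, against 1.35% of all genes tested. TIMP1 and TIMP2 were also lower with an adjusted p under 0.05, but by less than 1.5-fold, which made 4 lower and 0 higher at this threshold, against 11.5% lower and 6.47% higher among all genes tested. The other 5 did not pass. MMP13 and TIMP3 reached the filter in all 3 Control libraries but in only 1 CELF6-OE library, so they were tested only through the group where they were higher, and the counts and the median of the genes tested are a description. The median log2 fold change of the 9 genes was -0.35, and that of all genes tested was 0.01.

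MMP7, also called matrilysin, is a small secreted metalloproteinase of epithelial cells that cuts E-cadherin and basement membrane proteins. It was covered by 2495, 2138 and 2610 reads in replicates 1 to 3 of CELF6-OE, against 4869, 4967 and 4285 in those of Control. Every CELF6-OE library thus had fewer MMP7 reads than every Control library. Its FPKM was 61.1, 51.3 and 65.7 in CELF6-OE and 114.3, 112.0 and 96.6 in Control, with means of 59.4 ± 7.37 and 107.6 ± 9.63 (SD, n = 3 each; p = 0.1 in a two-sided exact permutation test, which cannot go lower with 3 libraries a group). The log2 fold change was -0.89 (standard error 0.094, 95% confidence interval -1.09 to -0.68), so that 54.1% of the Control level was left. MMP7 had the smallest adjusted p of the 9 genes, 0.000104 in edgeR's quasi-likelihood test, and it was a DEG under all 13 alternatives of scaling, filter, test, block and left-out library, with a log2 fold change between -0.97 and -0.79.

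MMP7 (ENSG00000137673) is read from the minus strand, spans bases 102520508 to 102530750 of chromosome 11 (GRCh38) and has 6 exons in its canonical transcript. The bases before its start are shown because MMP7 had the smallest adjusted p, with those of TIMP1, the most abundant of the 10 genes, for comparison. Both are RefSeq sequences of GRCh38.p14, 5′ to 3′, each the 120 bases before the RefSeq start, and lie at chr11:102530748-102530867 on the minus strand and at chrX:47582316-47582435 on the plus strand. In MMP7 the capitals mark, in order, the AP-1 heptamer TGAGTCA and the hexamer TATAAA, and in TIMP1 they mark the ETS hexamer AGGAAG.
MMP7: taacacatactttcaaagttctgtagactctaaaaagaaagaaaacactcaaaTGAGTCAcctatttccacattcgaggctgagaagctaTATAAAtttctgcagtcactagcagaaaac
TIMP1: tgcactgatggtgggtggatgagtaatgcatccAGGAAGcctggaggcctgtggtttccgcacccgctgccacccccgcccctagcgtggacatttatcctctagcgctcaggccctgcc

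AP-1, a dimer of FOS and JUN proteins, and ETS proteins are transcription factors known to act on metalloproteinase promoters. Promoter sequences were found for 5 of the 10 genes (MMP7, MMP14, MMP15, TIMP1 and TIMP3), and the 250 bases before the start were searched. The AP-1 heptamer (TGAGTCA or TGACTCA, both strands) was found in 1 of the 5, MMP7, from 67 to 61 bases before the start, and in 4.2% of 35116 promoters, or 3.13% of the 15158 promoters of genes tested. TATAAA on the sense strand was found in MMP7 alone, from 30 to 25 bases before the start, and in 6.8% of all promoters, or 3.7% of those of genes tested. The ETS hexamer (AGGAAG or CTTCCT, both strands) was found at 2 places in MMP7, farther upstream than the bases shown, at 1 place in TIMP1 and in 28.7% of all promoters, or 28% of those of genes tested. No match overlapped another of a different motif. Only these exact letters were searched, so variants of the motifs were not counted. The TIMP1 bases shown hold TGAGTAA, which differs from the AP-1 heptamer TGAGTCA in 1 letter and is not marked. A gene without a match can therefore still hold a variant site. These matches describe letters, and binding was not measured.

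MMP13, collagenase 3, which cuts fibrillar collagen, was expressed at a far lower level. It was covered by 5, 2 and 13 reads in the CELF6-OE libraries, against 21, 22 and 26 in the Control libraries. The groups did not overlap, but the comparison rests on 20 reads against 69, in a gene that entered the test through its Control libraries. The log2 fold change was -1.69 (standard error 0.47, 95% confidence interval -2.72 to -0.67), with an adjusted p of 0.0291 in edgeR's test. This call was lost when any of 3 libraries was left out, with an adjusted p of 0.110 without CELF6-OE replicate 1, 0.108 without CELF6-OE replicate 2 and 0.0796 without Control replicate 2, and the log2 fold change ranged from -2.62 without CELF6-OE replicate 3 to -1.25 without CELF6-OE replicate 2. MMP1, collagenase 1, was covered by 4, 16 and 10 reads in the CELF6-OE libraries, against 13, 1 and 11 in the Control libraries. Its groups overlapped widely, its log2 fold change was 0.33 with a 95% confidence interval of -1.08 to 1.73, and its adjusted p was 0.757.

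Of the surface complex around proMMP2, TIMP2 passed the test, while MMP2 and MMP14 did not. MMP2, gelatinase A, which cuts denatured collagen and basement membrane type IV collagen, was covered by 72, 69 and 48 reads in the CELF6-OE libraries, against 51, 29 and 44 in the Control libraries. After scaling, its CPM was 2.07, 1.90 and 1.40 in the CELF6-OE libraries and 1.38, 0.78 and 1.21 in the Control libraries. All 3 CELF6-OE libraries were above the Control libraries, CELF6-OE replicate 3 only just above Control replicate 1. The log2 fold change of MMP2 was 0.68 (standard error 0.24, 95% confidence interval 0.15 to 1.21), and its adjusted p of 0.0754 missed the threshold in edgeR's quasi-likelihood test. It was 0.0225 when all 29889 genes were tested without a filter and 0.0288 without Control replicate 1, both with a fold change over 1.5.
MMP14, the membrane-bound activator of proMMP2, was covered by 23, 28 and 40 reads in the CELF6-OE libraries, against 39, 33 and 36 in the Control libraries, with overlapping groups and a log2 fold change of -0.17 (95% confidence interval -0.73 to 0.39, adjusted p = 0.679 in edgeR's test). MMP15, another membrane-type enzyme, was covered by 678, 754 and 720 reads in the CELF6-OE libraries, against 753, 863 and 967 in the Control libraries. Its groups overlapped after scaling, the log2 fold change was -0.19 (95% confidence interval -0.41 to 0.03) and the adjusted p was 0.21 in edgeR's test. Without Control replicate 1 the adjusted p of MMP15 was 0.0217.

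TIMP1 and TIMP2, the abundant inhibitors, both fell by a small amount. TIMP1, which binds most secreted metalloproteinases and proMMP9, was covered by 6028, 6081 and 5830 reads in the CELF6-OE libraries, against 7220, 8107 and 8649 in the Control libraries. The 3 CELF6-OE libraries lay close together, and all of them were below the lowest Control library. Its FPKM was 113.2 ± 0.68 in CELF6-OE and 140.6 ± 9.83 in Control (SD, n = 3 each), and its log2 fold change was -0.35 (standard error 0.074, 95% confidence interval -0.51 to -0.18, adjusted p = 0.00885 in edgeR's quasi-likelihood test). TIMP2 was covered by 4036, 4559 and 4672 reads in the CELF6-OE libraries, against 5746, 6039 and 6323 in the Control libraries, again without overlap. Its log2 fold change was -0.38 (standard error 0.074, 95% confidence interval -0.54 to -0.21, adjusted p = 0.00569). CELF6-OE thus kept 78.7% of the Control level of TIMP1 and 77.1% of that of TIMP2. Without Control replicate 2 the adjusted p of TIMP1 was 0.052, and for TIMP2 it was under 0.05 in all 13 alternatives.

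TIMP3, the inhibitor that binds to the extracellular matrix and also blocks ADAM17, was barely expressed. It was covered by 7, 6 and 11 reads in the CELF6-OE libraries, against 15, 26 and 16 in the Control libraries. The groups did not overlap, and the log2 fold change was -1.16 (standard error 0.38, 95% confidence interval -2.00 to -0.32), but with an adjusted p of 0.0579 in edgeR's test it did not pass. The adjusted p was 0.0404 without the filter on low counts, 0.0344 without Control replicate 1 and 0.243 without Control replicate 2.

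**Figure D2:**
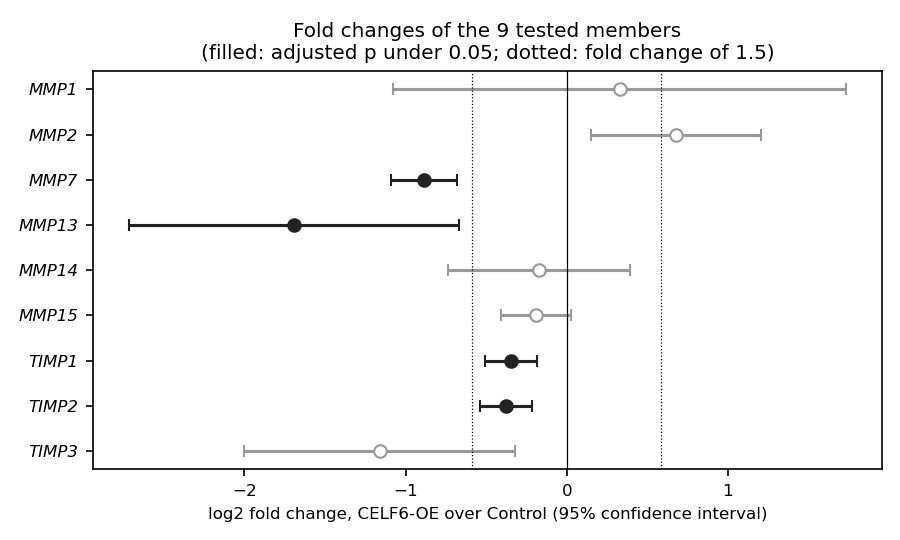
Log2 fold change of CELF6-OE over Control (horizontal axis) with its 95% confidence interval for the 9 genes tested. Filled points are the 4 genes with an adjusted p under 0.05 (MMP7, MMP13, TIMP1 and TIMP2), of which MMP7 and MMP13 lie beyond the dotted line of a 1.5-fold change. The intervals are widest for the low-count genes MMP1 and MMP13.

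**Figure D3:**
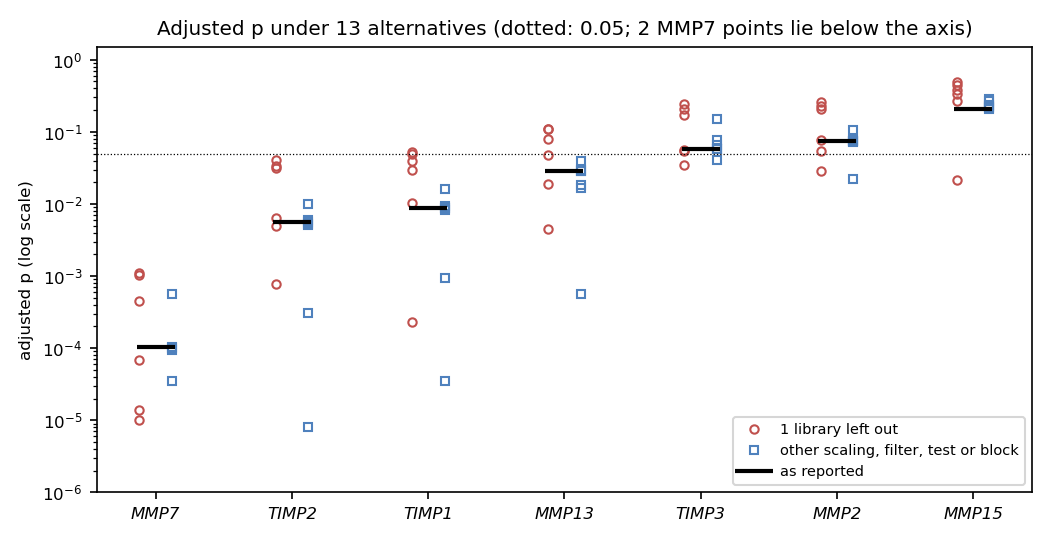
Adjusted p (vertical axis, log scale) of 7 genes as reported (black bar), with 1 library left out (red circles) and with another scaling, filter, test or the replicate block (blue squares). A pair of MMP7 points lies below the axis, all MMP7 and TIMP2 points lie under 0.05 (dotted), and the points of MMP13, TIMP1, TIMP3, MMP2 and MMP15 lie on both sides of it.

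Summed over the genes, enzymes and inhibitors both had lower levels in every CELF6-OE library than in any Control library. The 7 metalloproteinases summed to an FPKM of 66.2, 56.9 and 71.4 in CELF6-OE and 119.9, 117.7 and 103.2 in Control, and MMP7 made up 90.1% to 95.3% of the sum in every library. The 3 inhibitors summed to 141.2, 142.7 and 145.7 in CELF6-OE and 167.9, 178.7 and 189.7 in Control, and TIMP1 made up 77.7% to 80.6% of the sum. The TIMP sum was thus 2.13, 2.51 and 2.04 times the MMP sum in CELF6-OE and 1.40, 1.52 and 1.84 times in Control. The lowest CELF6-OE ratio was above the highest Control ratio, with means of 2.23 ± 0.25 and 1.59 ± 0.23 (SD, n = 3 each). These are ratios of transcript levels over genes chosen for this description, and they were given no test. They mostly follow TIMP1 and MMP7, and other genes of the family, such as MMP24 and TIMP4, were not in the sums.

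**Figure D4:**
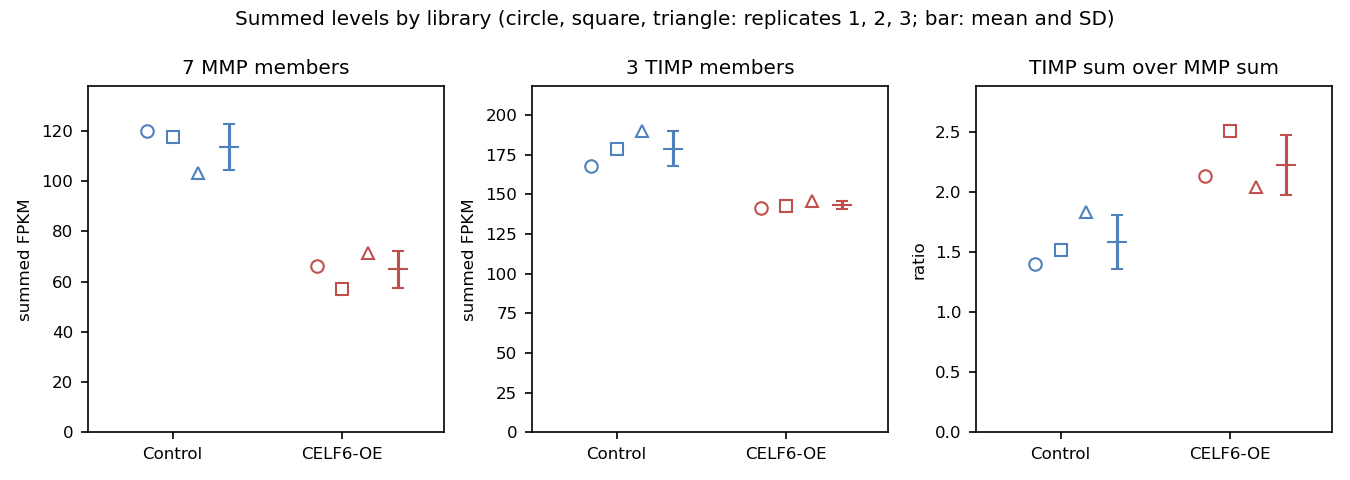
Summed FPKM of the 7 metalloproteinases (left), of the 3 inhibitors (middle) and their ratio (right) in each Control (blue) and CELF6-OE (red) library, with the mean and SD. The MMP sum lies between 56.9 and 71.4 in CELF6-OE and between 103.2 and 119.9 in Control, and the ratio is higher in all 3 CELF6-OE libraries than in any Control library.

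MMP1, MMP3, MMP7 and MMP13 belong to the metalloproteinase cluster of chromosome 11. In GENCODE v44 this stretch, from 102520508 to 102955732 of GRCh38 and 435.2 kb long, holds 9 protein-coding genes, all of them metalloproteinases on the minus strand. The stretch was drawn from MMP7 to MMP13, so the place of these 2 DEGs at its ends was set by that choice. Of the 21545 reads counted on the cluster over all libraries, 99.2% were on MMP7. Between the ends, MMP10 (stromelysin 2) had 11 reads over the 3 CELF6-OE libraries and 18 over the 3 Control libraries, MMP1 had 30 and 25, and MMP20, MMP3 and MMP12 had at most 2 in either group. The other genes described here lie elsewhere, MMP2 (chromosome 16, 55389700 to 55506691) and MMP15 (58025754 to 58046901) on the same chromosome, MMP14 on chromosome 14, TIMP1 on X, TIMP2 on 17 and TIMP3 on 22.

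The libraries of a group were not alike. The pair that differed most was Control replicates 1 and 3, with a chi-square per degree of freedom of 29.3. Between CELF6-OE replicates it was 7.67 to 11.7. In CELF6-OE replicate 3, which had the fewest CELF6 reads, 8 of the 9 tested genes were closer to the Control mean than in replicates 1 and 2, the exception being TIMP1. MMP7 had a CPM of 76.3 there, against 71.6 and 59.0 in replicates 1 and 2 and 127.4 in the Control mean. MMP13 had 0.38 there, against 0.14 and 0.06, and TIMP2 had 136.6 against 115.9 and 125.8. The genes share these libraries, so this is a single observation on 1 library, and no relation to the CELF6 level was tested. The 9 tested genes include those that did not pass the test, and the share over all genes was not analysed here.

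Genes that overlap the members in the annotation had few reads. TIMP1 lies within SYN1, on the opposite strand and without shared exons, and SYN1 had on average 12.0 reads per CELF6-OE library and 13.7 per Control library. CEP295NL, which shares exons with TIMP2 on the same strand, had means of 3.67 and 3 counts, and WTAPP1, which overlaps exons of MMP1 and MMP3 on the opposite strand, had means of 1 and 2.33. Whether reads were assigned by strand is not given in the sources used here, and for MMP1, with 30 and 25 reads over the CELF6-OE and Control libraries, these counts are not small. Proteins of the CELF family are known to bind UGU-rich RNA. The heptamer TGTTTGT was found in the 3′ untranslated region of the canonical transcript of 3 of the 10 genes (MMP14, MMP15 and TIMP3), each with 1 match on the sense strand, and in 28.6% of 13178 transcripts of genes tested. None of MMP7, MMP13, TIMP1 and TIMP2 held it, but other UGU-rich sequences were not searched, and binding was not measured. The region searched was 268 bases long in MMP7, 1271 in MMP13, 98 in TIMP1 and 2690 in TIMP2, against a median of 1291 over those transcripts.

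Other members of the family were looked up from a list of 17 further metalloproteinases, of which 13 had a row and 6 passed the filter. MMP9 and MMP28 were DEGs, both lower, and none was higher, where 5.82% and 1.35% of all genes tested were lower and higher DEGs. MMP9, gelatinase B, was covered by 14, 26 and 14 reads in the CELF6-OE libraries, against 38, 44 and 35 in the Control libraries, and its log2 fold change was -1.04 (standard error 0.28, adjusted p = 0.0254 in edgeR's test). MMP28, epilysin, was covered by 36, 26 and 27 reads in the CELF6-OE libraries, against 49, 65 and 56 in the Control libraries, and its log2 fold change was -0.86 (standard error 0.22, adjusted p = 0.0215). Both were low-count genes, without overlap between the groups, but they were selected as DEGs. The share of genes without overlap over all genes tested was not analysed here. MMP19 did not pass (adjusted p = 0.181), with 11, 8 and 11 counts against 14, 12 and 34, where Control replicate 3 stood apart. MMP10 was below the filter, and MMP8 was not analysed here. MMP24, the most abundant of these, had an FPKM of 9.47 ± 0.47 in CELF6-OE and 8.99 ± 0.87 in Control (SD, n = 3 each) and did not pass either (adjusted p = 0.782).

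Among 8 further inhibitors, 5 were tested, 1 was a higher DEG and 0 were lower DEGs. Of all genes tested, 1.35% were higher and 5.82% were lower DEGs. SPOCK1, a secreted proteoglycan, rose to 50, 73 and 63 reads in the CELF6-OE libraries from 25, 36 and 31 in the Control libraries (log2 fold change 1.08, adjusted p = 0.00672 in edgeR's test). TIMP4 had a log2 fold change of 0.20 (adjusted p = 0.184) and RECK, a membrane-anchored inhibitor, one of -0.12 (adjusted p = 0.595), so neither passed. TFPI2, a secreted inhibitor of plasmin and other proteases, was lower with a log2 fold change of -0.28 and an adjusted p of 0.0227, by less than 1.5-fold.

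**Figure D5:**
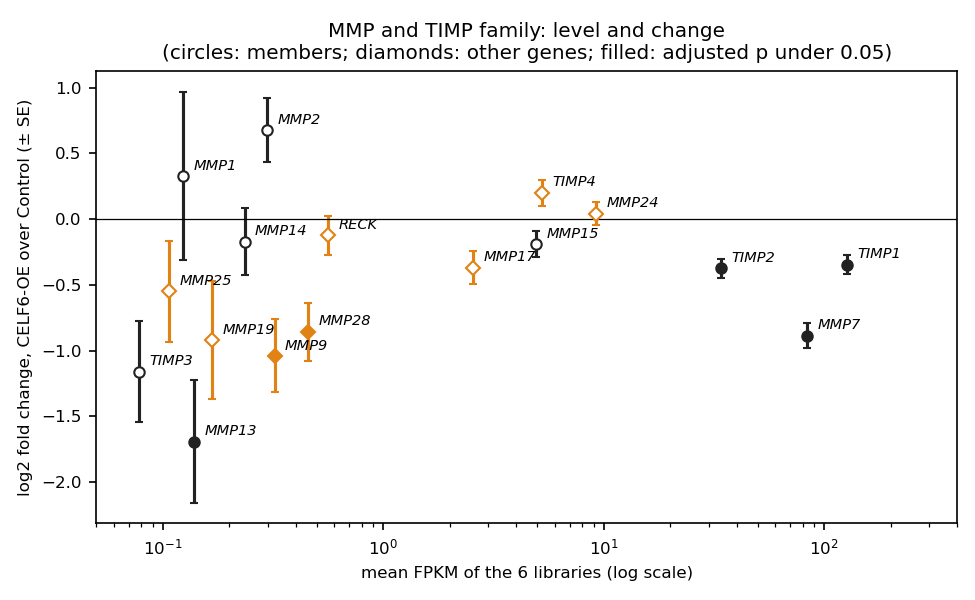
Mean FPKM of the 6 libraries (horizontal axis, log scale) against the log2 fold change of CELF6-OE over Control with its standard error (vertical axis) for 17 tested genes of the family, with the 9 members as circles and other metalloproteinases, TIMP4 and RECK as diamonds. Filled points passed an adjusted p of 0.05, all of them below 0, and MMP7, TIMP1 and TIMP2 are the only filled points with a mean FPKM over 1.

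Activators and surface partners of the metalloproteinases were a list of 23 genes, 19 of them tested, with 4 lower DEGs and 0 higher DEGs, where 5.82% and 1.35% of all genes tested were. With no minimum of the fold change, 7 were lower and 1 higher, against 11.5% and 6.47% of all genes tested. PLAUR, the urokinase receptor, was covered by 2465, 2872 and 2744 reads in the CELF6-OE libraries, against 4098, 4485 and 4792 in the Control libraries, and its log2 fold change was -0.65. PLAT, tissue plasminogen activator, had a log2 fold change of -0.90 and ST14, the membrane protease matriptase, one of -1.11 on 7 to 29 counts. ST14 reached the filter on low counts in 2 CELF6-OE libraries and in all 3 Control libraries. In edgeR's test the largest adjusted p of these DEGs was 0.0321, that of ST14. PLAU, urokinase itself, had a log2 fold change of 0.22 and an adjusted p of 0.145, and FURIN, which activates MMP14, one of -0.04 with an adjusted p of 0.732. CD44, a surface anchor of MMP7 and MMP9, was lower by less than 1.5-fold, with a log2 fold change of -0.20 and an adjusted p of 0.0391.

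All 16 transcription factors listed for their known action on metalloproteinase promoters were tested, and 2 were lower DEGs and 0 higher DEGs, against 5.82% and 1.35% of all genes tested. With no minimum of the fold change, 4 were lower and 2 higher, against 11.5% and 6.47%. FOS was covered by 189, 136 and 218 reads in the CELF6-OE libraries, against 391, 305 and 288 in the Control libraries, and its log2 fold change was -0.78 (adjusted p = 0.0138 in edgeR's test). JUNB fell by 0.69 on the log2 scale (adjusted p = 0.000145). FOSL1 had an FPKM of 72.7 ± 12.0 in CELF6-OE and 48.1 ± 6.56 in Control (SD, n = 3 each). In edgeR's test, which used TMM-scaled counts and not FPKM, FOSL1 was higher by 1.47-fold, just short of 1.5-fold. Its log2 fold change there was 0.56 (adjusted p = 0.0106). JUN, with a log2 fold change of 0.12, did not pass. The AP-1 genes thus did not move in 1 direction, and whether they bear on MMP7 was not tested.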

How the data were processed

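RNA-seq libraries of A549 cells, 3 CELF6-OE and 3 Control, were grouped and numbered by their titles. The libraries were directional and made from polyadenylated RNA. As the methods describe, low-quality reads and adaptor sequences were removed by the authors, TopHat2 was used for alignment to GRCh38, and only reads with a single location entered the gene values. The counting tool, strand setting and annotation release are not given in the sources used here. The authors deposited whole-number counts without normalization and FPKM values rounded to 2 decimals. The GRCh38 build, TopHat2 and edgeR are also named in the submitters' processing notes.

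TMM factors from edgeR 4.0.16, run under R 4.3.3, scaled the libraries, and the 15847 genes kept by filterByExpr (minimum count 10) were tested with the quasi-likelihood test (glmQLFit, glmQLFTest, prior count 0.125) and Benjamini-Hochberg adjustment over all of them. The filter was used because the prior degrees of freedom were infinite without it and 7.15 with it. Standard errors are the log2 fold change divided by the root of the F statistic, with t intervals at 95%. FPKM served for levels between genes. Limma 3.58.1 and DESeq2 1.42.0 were alternatives, limma also on log2(FPKM + 1) and log2(FPKM + 0.1). The procedure was also run on simulated data, and the outcome is not reported here. Gene models and overlaps came from GENCODE v44, in which 29032 of the 29889 gene IDs were found, and promoters from RefSeq.

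All 10 genes, and the genes of the lists, were named whatever their values or where they were DEGs, with at most 8 per list, beside MMP8, MMP9, MMP10, MMP19, MMP28, TIMP4 and RECK, whatever their values, genes that overlap a member and the 3 genes closest in pattern to each DEG. MMP8 was not analysed here, and some genes that this rule names are not reported here. MMP12, MMP20, MMP24, PLAU, FURIN, CD44, TFPI2, JUN, FOSL1, ADAM17 and the markers beside CDH1 and ITGAM were named after their values were seen. The members and lists were chosen with earlier results of these data known. Replicate pairs within a group had a chi-square per degree of freedom of 7.67 to 29.3, so none was a duplicate. The labels call the samples replicates and the methods biological replicates, and intervals of counts cover no other source of error.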

Additional observations from a re-analysis of the deposited data

How the results depend on the processing

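The counts of lower and higher DEGs among the 10 genes, 2 and 0, were the same with RLE size factors, total counts only, DESeq2, limma-voom, a p under 0.01 with a fold change of 1.5, CELF6 counts removed and the replicate number as a block. With the replicate block 2 genes were lower and 0 higher, and no call changed. Without the filter on low counts 1 gene, MMP2, was higher, and 3 were lower, with TIMP3 added. With no minimum of the fold change 4 were lower. Leaving out each library in turn gave 1 to 3 lower and 0 to 1 higher, with 1 lower where MMP13 was lost (without CELF6-OE replicate 1, CELF6-OE replicate 2 or Control replicate 2) and 3 lower with MMP2 higher without Control replicate 1. The log2 fold change of MMP1 changed sign, from -0.19 to 0.78 over these 6 fits. On log2(FPKM + 1) the adjusted p of MMP13 was 0.0658 and with a pseudocount of 0.1 it was 0.108, above the threshold, while MMP7 kept an adjusted p of 0.0142 and 0.0114 in limma. Same-numbered replicates did not deviate together from their group means, with correlations across genes of -0.01, -0.02 and -0.07. This cannot show whether same-numbered samples were prepared together, which is not given in the sources used here. Over all genes, leaving out 1 library gave 107 to 371 higher and 672 to 989 lower DEGs, against 214 and 922. Depth limits MMP1, MMP3, MMP13 and TIMP3, which had 26 counts or fewer in every library, and their direction rests on few reads.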

Other observations

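The ADAM and ADAMTS proteases, relatives of the metalloproteinases that shed surface proteins or cut proteoglycans, were a list of 28 genes, of which 17 were tested. ADAM28, ADAMTS2 and ADAMTS9 were lower DEGs and none was higher, where 5.82% and 1.35% of all genes tested were lower and higher DEGs. ADAM28 reached the filter on low counts in 0 and ADAMTS2 in 1 of the CELF6-OE libraries, so both were tested only through the Control libraries, where they were higher. ADAM28 was covered by 2, 1 and 8 reads in the CELF6-OE libraries, against 18, 17 and 16 in the Control libraries, with a log2 fold change of -2.10 and an adjusted p of 0.0187 in edgeR's test. ADAMTS2, which trims procollagen, had 8, 3 and 11 counts against 27, 17 and 17 (log2 fold change -1.38, adjusted p = 0.0463), and ADAMTS9 had 67, 77 and 84 against 147, 112 and 108 (log2 fold change -0.61, adjusted p = 0.0312). ADAM17, the sheddase of TNF that TIMP3 blocks, had a log2 fold change of 0.03 and an adjusted p of 0.811. In all 3 DEGs the groups did not overlap, but these genes were selected for their difference between the groups. The share of genes without overlap over all genes tested was not analysed here.

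The genes whose log2 CPM followed MMP7 most closely over the 6 libraries were CXorf38, CYP4F11 and NAT8, with Pearson correlations of 0.9997, 0.9981 and 0.9973. Their log2 fold changes were -0.53, -0.39 and -3.34, which differ in size. For MMP13 the closest were PATL2 and CDK5RAP3, with 0.9977 and 0.9939, and their log2 fold changes were -1.99 and -0.12. The correlation with MMP7 was over 0.95 for 762 genes, 4.81% of those tested. These values describe 6 libraries in 2 groups, which any gene with a difference between the groups follows in part, and they carry no p.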
